A study of Mus musculus with 2 samples.

Results

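Open CpG-poor promoters of protein-coding genes were examined in the adrenal gland of the mouse by DNase-seq, an assay in which the enzyme DNase I cleaves accessible DNA in isolated nuclei and the released fragments are sequenced. Members were transcription start sites (TSSs) of the GENCODE M21 basic set on mm10 that met a pair of conditions. The window of 500 bp on either side had an observed/expected CpG ratio under 0.35, where the ratio is the number of CpG dinucleotides times the window length over the product of the C and G counts. A peak of the authors' longer list also overlapped that window in each pool. The members were thus chosen by the peaks themselves and by the CpG ratio, and their openness is a description rather than a result. The rule selected 1900 TSSs of 1305 genes, out of 41438 protein-coding TSSs of 21851 genes. Several TSSs can fall under 1 peak, and the strongest peaks at the 1900 members were 1356 distinct peaks in replicate 1 and 1358 in replicate 2.

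The tissue was the whole adrenal gland. The mice were B6CASTF1/J males aged 8 to 10 months, a first-generation hybrid whose reads were placed on mm10, an assembly of the C57BL/6J strain. The labels give 1 group of 2 pools, each made from 6 adrenal gland biosamples and each sequenced as 1 library, and both pools carry the same donor identifier. There was no treated or control group, so the members were set beside the other open protein-coding TSSs and beside CpG-poor TSSs that were not open, and no test was made. Whole glands hold cortex, medulla, vessels, capsule and attached fat, so a weak peak in few cells and a weak peak in all cells cannot be told apart. Markers were counted by an open TSS of any CpG ratio, which 13092 of all 21851 protein-coding genes had. An open TSS was found at 8 of 8 cortex genes and 0 of 8 genes of other organs. It was found at 5 of 6 medulla, 4 of 5 endothelial, 1 of 5 macrophage, 2 of 4 fibroblast and 1 of 3 adipocyte genes. These sets are small, and most genes have an open TSS. Several of the cortex genes are themselves members, chosen for a peak in both pools, so their openness is no check of the tissue label. In longer lists, 5 of 11 forebrain neuron, 3 of 10 skeletal muscle and 2 of 12 kidney genes had an open TSS. So did 1 of 16 hepatocyte and 1 of 11 spermatogenesis genes.

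Most mammalian promoters lie in CpG islands, stretches of unmethylated DNA that stay accessible in nearly every cell type. CpG-poor promoters have lost most of their CpG dinucleotides, are usually methylated and closed, and are known to be opened in particular tissues by sequence-specific transcription factors, sometimes with a TATA box fixing the start. Genes for hormones, enzymes of differentiated tissues and receptors of immune or sensory cells often have this kind of promoter. In the adrenal cortex the nuclear receptor NR5A1 (SF-1) is the classical activator of the steroidogenic genes, several of which have CpG-poor promoters.

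Reference sequence of 4 steroidogenic promoters is printed below because these genes define the cortex and the upstream 150 bp held bases that lay in footprints of both pools. A footprint is a short stretch that was protected from cleavage within open DNA, as deposited by the authors. The sequences are from the mm10 reference (GRCm38.p6, RefSeq), read on the gene's strand from −150 to −1, where −1 is the base next to the TSS, and capitals mark bases in a footprint of both pools.
Star (chr8:25808324-25808473, + strand): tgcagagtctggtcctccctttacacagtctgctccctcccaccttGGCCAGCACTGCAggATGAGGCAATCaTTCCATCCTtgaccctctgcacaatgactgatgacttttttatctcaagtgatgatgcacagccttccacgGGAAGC
Cyp21a1 (chr17:34804562-34804711, - strand): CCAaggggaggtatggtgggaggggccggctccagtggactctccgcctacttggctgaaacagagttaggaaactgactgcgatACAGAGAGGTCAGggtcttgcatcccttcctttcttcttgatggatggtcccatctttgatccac
Nr5a1 (chr2:38714543-38714692, - strand): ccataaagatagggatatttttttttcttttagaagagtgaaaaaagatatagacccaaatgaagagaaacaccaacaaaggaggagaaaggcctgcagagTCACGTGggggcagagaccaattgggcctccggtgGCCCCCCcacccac
Akr1b7 (chr6:34412184-34412333, + strand): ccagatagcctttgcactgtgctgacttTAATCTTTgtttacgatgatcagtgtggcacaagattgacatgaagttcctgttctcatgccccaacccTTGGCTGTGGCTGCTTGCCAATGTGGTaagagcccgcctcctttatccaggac

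Star encodes the protein that carries cholesterol into mitochondria, and 39 of the 150 bases lay in footprints of both pools. Akr1b7, a mouse aldo-keto reductase abundant in the cortex, had 35 such bases, which included a CCAAT match starting at −36. Cyp21a1, the steroid 21-hydroxylase, had 16. Nr5a1 had 14, and these included the E-box CACGTG starting at −48. The same window held 0 such bases at Cyp11a1, Cyp11b1 and Hsd3b6. The strongest peak was centred downstream of the TSS at Cyp11a1 (299.5 and 309.5 bp in replicates 1 and 2) and at Hsd3b6 (113 and 242.5 bp). At Cyp11b1 it was centred at −157.5 and −147.5 bp.

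The next sequences are from the member genes with the most signal among those with no CpG-rich TSS within 500 bp, and from a shared promoter of 2 divergent genes. They are read in the same way, from the outermost TSS of Tldc1 and of Gstm7. The last is the whole stretch of 137 bp between the outermost TSSs of Tmem176b (on the minus strand) and Tmem176a (on the plus strand), read towards Tmem176a.
Tldc1 (chr8:119778417-119778566, - strand): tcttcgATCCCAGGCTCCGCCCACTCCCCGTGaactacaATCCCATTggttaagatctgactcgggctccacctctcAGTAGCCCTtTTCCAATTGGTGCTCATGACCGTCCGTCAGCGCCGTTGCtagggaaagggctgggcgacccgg
Gstm7 (chr3:107931818-107931967, - strand): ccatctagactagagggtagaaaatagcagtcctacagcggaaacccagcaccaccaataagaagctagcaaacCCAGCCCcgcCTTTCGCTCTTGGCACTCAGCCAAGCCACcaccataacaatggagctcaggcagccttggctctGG
Tmem176b-Tmem176a (chr6:48841375-48841511, + strand): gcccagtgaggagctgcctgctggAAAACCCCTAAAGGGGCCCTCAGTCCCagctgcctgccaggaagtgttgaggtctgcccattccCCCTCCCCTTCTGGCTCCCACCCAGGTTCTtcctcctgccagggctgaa

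At Tldc1 82 of 150 bases were in footprints of both pools, at Gstm7 38 of 150 and between the Tmem176 genes 57 of 137. The Tldc1 footprints overlapped, by at least 1 base, a GC-box match (GGGCGG, on either strand) starting at −134 and CCAAT matches starting at −106, −61 and −58, of which the match at −106 lay only partly in a footprint of both pools. At Gstm7 the covered bases held an NFI dyad starting at −57.

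CpG-poor TSSs were seldom open. In all, 14979 protein-coding TSSs had a CpG ratio under 0.35, and 12.7% of them were open in both pools, against 83.2% of TSSs with a ratio of 0.35 or more and 57.7% of all protein-coding TSSs. Per pool, 2126 CpG-poor TSSs (14.2%) had a peak in replicate 1 and 2366 (15.8%) in replicate 2, a mean of 14.99% ± 1.13 (SD, n = 2). The corresponding share of TSSs with a ratio of 0.35 or more was 85.4% ± 1.98 (SD, n = 2). Of the CpG-poor TSSs outside the members, 226 had a peak in replicate 1 alone, 466 in replicate 2 alone and 12387 in neither. At the level of genes, 9558 had a CpG-poor TSS and 13.7% of these had an open one. That 13.7% is the background for the counts of member genes under the main rule. Of the same 9558 genes, 890 were members with the authors' shorter peak list and 1703 with peaks within 1000 bp. These are the background for the counts given with those settings.

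The open share climbed with the CpG ratio inside the CpG-poor class as well. It was 3.84% at ratios under 0.1, 8.59% from 0.1 to 0.2, 17.3% from 0.2 to 0.3 and 30.7% from 0.3 to 0.35. Just above the limit, from 0.35 to 0.4, it was 38.6%, and it reached 65.7% from 0.4 to 0.6 and 91.6% at 0.6 or more. The limit of 0.35 therefore falls on a slope without a step. Signal followed the same order: the median in replicates 1 and 2 was 0.646 and 0.687 for open TSSs with ratios under 0.1, 1.08 and 1.37 from 0.3 to 0.35, and 3.67 and 4.92 at 0.6 or more.

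**Figure D1:**
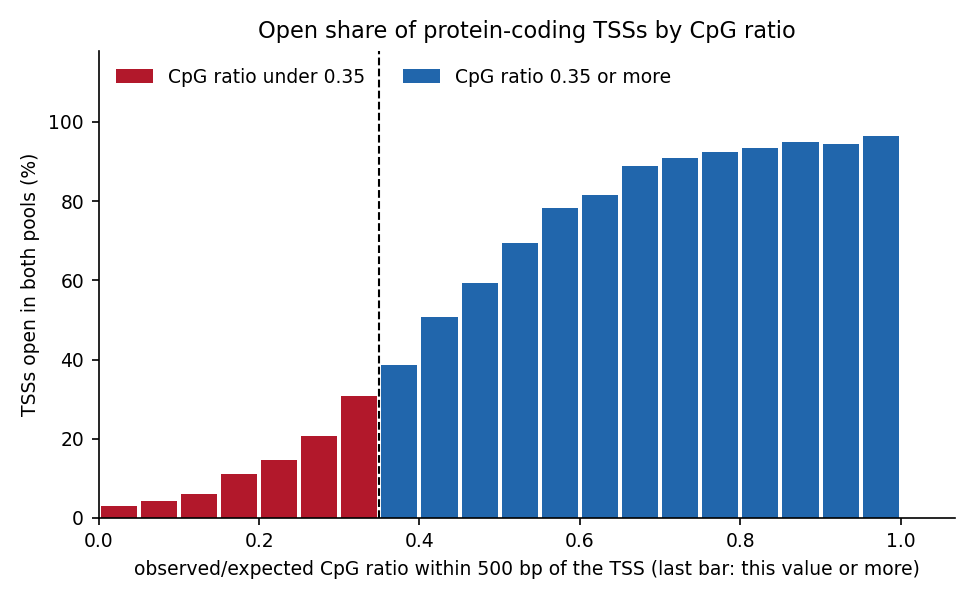
Percent of protein-coding TSSs with a peak within 500 bp in both pools (y axis), by observed/expected CpG ratio in steps of 0.05 (x axis); red bars lie under 0.35 and blue bars at or above it. The share increased across the limit without a step, with 30.7% in the last red bar and 38.6% in the first blue bar.

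At the threshold itself, the members with ratios nearest under 0.35 were TSSs of Ly6e (0.3499, signal 1.76 in replicate 1 and 2.23 in replicate 2), Myt1l (0.3498, 0.394 and 0.656) and Zfp457 (0.3498, 3.44 and 4.08). Nearest above it were TSSs of Ccrl2 (0.3505, 1.55 and 1.49), Ank3 (0.3505, 0.416 and 0.448) and Utrn (0.3507, 0.676 and 1.14). The signals of these members and non-members overlapped.

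Chemosensory receptor genes held many of the CpG-poor TSSs that were not open. Among olfactory, vomeronasal and trace amine receptor genes, 27 of 2942 CpG-poor TSSs (0.918%) were open, against 1873 of 12037 (15.6%) for all other genes. By gene, 17 of 1130 olfactory, 2 of 330 vomeronasal and 0 of 12 trace amine receptor genes were members. These genes are part of the 13.7% background given above. Olfr111, a member with a ratio of 0.0519, had signals of 0.230 and 0.168 in replicates 1 and 2, among the lowest of all members. By chromosome, the open share was highest on chromosome 15 (82 of 421 CpG-poor TSSs, 19.5%). It was 9.06% on chromosome X (60 of 662), and on chromosome Y 0 of 234 were open.

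Open CpG-poor TSSs had weaker peaks than other open TSSs. The signal of a TSS is the highest value the authors gave to a peak overlapping the window, on a scale with its normalization not given in the sources used here. Its median over members was 1.01 and 1.23 in replicates 1 and 2 (mean 1.12 ± 0.159, SD, n = 2), against 3.28 and 4.45 (mean 3.86 ± 0.820, SD, n = 2) at the other open TSSs and 3.02 and 4.11 at all open TSSs. Open TSSs with ratios from 0.35 to 0.6 lay between, with medians of 1.90 and 2.53. The gap between members and other open TSSs was larger than the difference between pools. The members' quartiles were 0.585 and 1.72 in replicate 1 and 0.671 and 2.09 in replicate 2, and the extremes were 0.178 and 12.9 in replicate 1 and 0.160 and 14.8 in replicate 2. A signal over 5 was found at 2.84% and 5.63% of members, against 31.8% and 44.5% of other open TSSs.

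**Figure D2:**
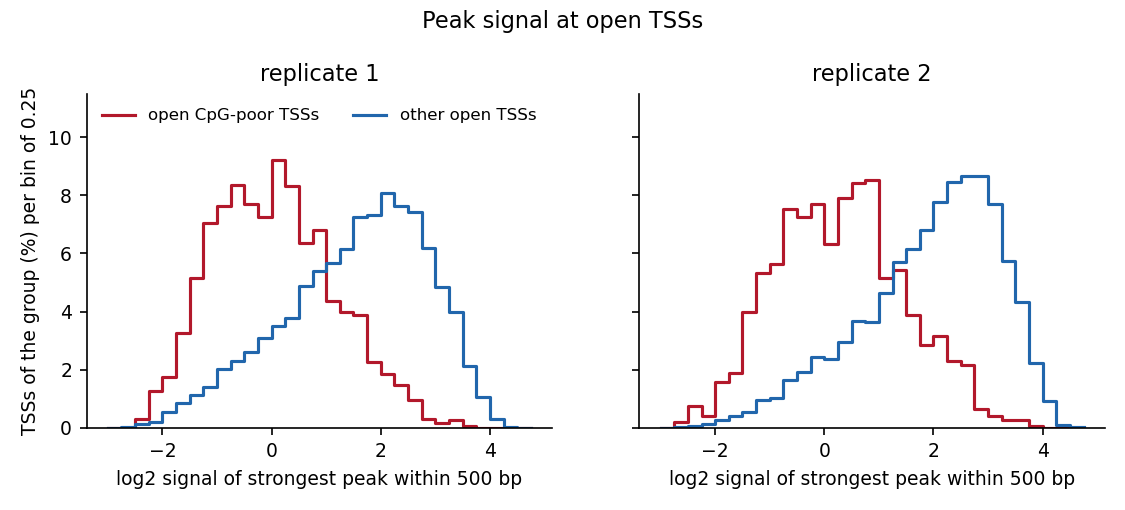
Distribution of the log2 signal of the strongest peak within 500 bp (x axis) as percent of TSSs per bin of 0.25 (y axis), for open CpG-poor TSSs (red, 1900) and other open TSSs (blue, 22012), in each pool. The red curve lies to the left of the blue one in both pools, and the curves overlap over most of their range.

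The pools ranked the members alike but differed in scale. Spearman's correlation of signal between pools was 0.947 over the 1900 members and 0.988 over the other open TSSs, as a description over TSSs that can share a peak. Replicate 2 had more signal at 1459 members (76.8%), against 97.0% of other open TSSs, and the median log2 ratio of replicate 2 over replicate 1 was 0.29 (SD over TSSs 0.37) at members and 0.38 (SD 0.24) at the other open TSSs. The strongest peaks of the pools did not overlap each other at 67 members (3.53%) and at 693 other open TSSs (3.15%), and there the signals belong to different regions. Over the 1833 members whose peaks overlapped, the median log2 ratio was 0.29 (SD 0.35). Among those, some genes with a mean signal of at least 1 departed most from the median, and they are named after their values were seen. Lrrc55 had signals of 1.34 and 0.887 in replicates 1 and 2 (log2 ratio −0.59), and Dcstamp, a gene of osteoclast fusion, had 3.89 and 2.69 (−0.53). In the other direction, Rdh11, a retinol dehydrogenase, had 0.899 and 1.90 (log2 ratio 1.08), and Ifit3b, an interferon-induced gene, had 0.921 and 1.90 (1.046). With 1 library per pool these differences have no replicate check.

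The members' windows differed from those of other open TSSs in composition and in the shape of the peaks. Median GC content was 50.6% at members, 60.3% at other open TSSs and 44.8% at CpG-poor TSSs not open in both pools, and the median number of CpG dinucleotides per window was 15, 67 and 8 in the same order. GC content was not used by the rule as such, although the CpG ratio is computed from C and G counts. The median percent of the window masked as repeat was 11.3 at members, 6.99 at other open TSSs and 14.3 at the CpG-poor TSSs not open. A peak covered the TSS itself at 56.0% of members in replicate 1 and 58.6% in replicate 2, against 70.7% and 73.3% of other open TSSs. More than 1 peak lay in the window at 19.8% and 24.7% of members, against 45.6% and 48.6%. The strongest peak was 220 bp wide in the median in both pools, against 260 and 240 bp, and its midpoint lay at −44.5 and −46.5 bp from the TSS at members, against −60.5 and −58.5 bp.

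The authors' table of false discovery rates (FDR) gave the same order. Bases in any deposited interval were counted in each window, with no further limit on the FDR. Their median was 334 bp in replicate 1 and 408 bp in replicate 2 at members, against 800 and 903 bp at other open TSSs. At an FDR of 0.001 or lower the medians were 202.5 and 260 bp for members, against 626.5 and 751 bp. The number of distal regions shared by both pools within 50 kb of the TSS did not separate the groups of open TSSs: the median was 4 for members and 4 for other open TSSs, against 2 for CpG-poor TSSs not open.

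Most member genes had no annotated CpG-rich start. Of the 1305 member genes, 827 (63.4%) had no annotated protein-coding TSS with a ratio of 0.35 or more, 412 (31.6%) also had an open TSS with such a ratio, and 66 (5.06%) had only closed ones of that kind. More than 1 member TSS was found for 404 genes. A CpG-rich TSS of any gene lay within 500 bp of few members, since 1796 (94.5%) had none, and 1654 had none within 2000 bp. Members with a CpG-rich TSS within 500 bp had a median signal of 1.64 in replicate 1 and 2.17 in replicate 2, against 0.981 and 1.19 for members without one. Parp3, an ADP-ribosyltransferase gene singled out after its values were seen, had the highest signal of any member (12.9 in replicate 1 and 14.8 in replicate 2) and is such a case. Its peak midpoint lay at −551.5 bp from the member TSS in replicate 1 and at −451.5 bp in replicate 2.

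Footprints were found at most members but were fewer than at other open TSSs. At least 1 footprint overlapped the window at 88.8% and 87.7% of members in replicates 1 and 2 (mean 88.3% ± 0.819, SD, n = 2), and at 1528 members (80.4%) in both pools. The corresponding values were 97.4% and 97.9%, with 96.0% in both pools, for other open TSSs, and 94.8% of all open TSSs had a footprint in both pools. CpG-poor TSSs not open in both pools had one at 1.03% and 1.99%, a group that includes TSSs with a peak in 1 pool. Those with a peak in neither pool had one at 0.0484% in each pool. No footprint was present in either pool at 74 members. The mean number per member was 2.82 and 2.99, against 6.17 and 6.95 per other open TSS. In all 3766 footprints lay at members in replicate 1 and 3986 in replicate 2, with a median width of 9 bp.

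Stronger peaks held more footprints, and the gap between the groups was present within bands of signal. For signals from 1 to 2, members had a mean of 3.04 footprints in replicate 1 and 3.13 in replicate 2, against 5.05 and 4.88 at other open TSSs. For signals above 4, members had 6.00 and 5.90, against 7.90 and 8.37. Under 0.5 the means were 1.24 and 0.981 for members, against 1.57 and 1.38. Signal within a band, GC content and the number of peaks per window also differ between the groups, and their part in these gaps was not tested.

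Footprints at members clustered just upstream of the TSS. The share of bases in a footprint peaked at 10.3% from −80 to −61 in replicate 1 and at 11.4% from −60 to −41 in replicate 2, while at other open TSSs it peaked at 25.6% and 28.7%, from −60 to −41 in both pools. Over the 200 bp upstream it was 7.47% and 8.08% at members, against 20.4% and 22.7% at other open TSSs. Over the 200 bp downstream it was 3.62% and 4.005%, against 8.92% and 10.8%. The pools placed footprints on the same bases less completely at members. Bases in a footprint of both pools were 47.0% of the footprint bases of replicate 1 and 42.9% of those of replicate 2 at members, against 67.0% and 58.0% at other open TSSs.

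**Figure D3:**
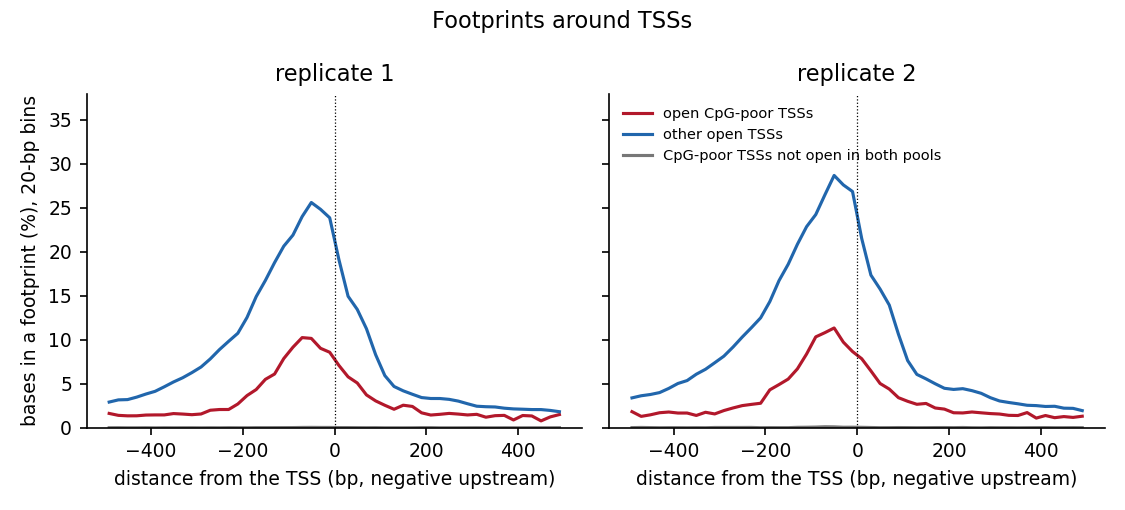
Percent of bases in a footprint (y axis) by distance from the TSS in bins of 20 bp (x axis, negative upstream), for open CpG-poor TSSs (red), other open TSSs (blue) and CpG-poor TSSs not open in both pools (grey, near 0), in each pool. Both open groups peak within 80 bp upstream of the TSS, with a lower curve for the open CpG-poor TSSs.

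The member genes with the most footprints in the pool that had fewer were Baz2a (11 in replicate 1 and 12 in replicate 2), Cd151 (10 and 10), Plec (10 and 12), Zfp467 (10 and 9) and Phf21a (9 and 10). Plec encodes the cytoskeletal linker plectin, and Cd151 a tetraspanin that binds integrins. All 5 genes also had an open TSS with a ratio of 0.35 or more, and at Phf21a a CpG-rich TSS lay within 500 bp. In replicates 1 and 2 the strongest peak was centred at −459.5 and −449.5 bp at Baz2a and at −547.5 and −497.5 bp at Plec. At Phf21a it was at −445.5 and −465.5 bp, near the window edge. It lay nearer the TSS at Cd151 (118.5 and 128.5 bp) and Zfp467 (−144.5 bp in both pools). At the low end of signal, Ces2e, a carboxylesterase gene, had 0.193 in replicate 1 and 0.184 in replicate 2 and no footprint in either pool.

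The members with the most signal and no CpG-rich TSS within 500 bp included genes of several functions. Tldc1 (ratio 0.345) had signals of 10.9 and 13.2 in replicates 1 and 2, with 8 and 9 footprints. Gstm7, a glutathione S-transferase (ratio 0.257), had 10.7 and 12.8, with 5 footprints in each pool. Tef, a PAR-domain transcription factor with circadian output (0.272), had 10.4 and 11.9, with 8 in each. These 3 members had signals above the median of the other open TSSs in both pools.

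Further down that order, Pold4, a subunit of DNA polymerase delta, had 8.69 in replicate 1 and 10.1 in replicate 2, and Cyp4f13, a fatty acid hydroxylase, had 7.68 and 9.66. Grn, the gene of progranulin, had 7.20 and 6.95, and Ticam1, the adaptor TRIF of Toll-like receptors, had 7.20 and 7.47. Zbtb38, a zinc finger protein that binds methylated DNA, had 7.15 and 7.65. Mafk, a small Maf protein, had 6.08 and 7.66, from a peak centred 466.5 and 456.5 bp downstream of its member TSS. BC049715 had 7.65 and 8.43, from a peak centred at −562.5 and −572.5 bp. Tmem176a and Tmem176b shared 1 peak with 6.59 in replicate 1 and 8.04 in replicate 2. Their ratios were 0.111 and 0.0978, the lowest among these 12 genes, and both gene products are intracellular cation channels of immune cells. Gstm and Cyp4f genes lie in clusters of similar copies, and the handling of reads shared between copies was not given in the sources used here.

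Most CpG-poor genes of the steroidogenesis list were open. Of its 10 genes with a CpG-poor TSS, 8 were members, against the 13.7% background. The count was also 8 with the authors' shorter peak list and with peaks within 1000 bp. The list was chosen with earlier results of these data known, so the count is a description. Star had signals of 5.44 and 6.52 in replicates 1 and 2, with 6 and 11 footprints. Cyp21a1 had 5.27 and 4.72, with 11 and 7 footprints. Cyp11a1, the side-chain cleavage enzyme that starts steroid synthesis, had 4.45 and 5.20, with 5 and 6 footprints. All 3 were above the upper quartile of members in both pools.

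Cyp11b1, the 11β-hydroxylase that makes corticosterone, had signals of 3.47 and 4.01 in replicates 1 and 2. These 4 genes are the list's highest, and its other members follow in order. The nuclear receptor gene Nr5a1 had 2.55 and 3.36, and Akr1b7 had 2.35 and 2.95. Mc2r, the ACTH receptor, had 1.16 and 1.54, with 0 footprints in replicate 1 and 3 in replicate 2. Hsd3b6, a 3β-hydroxysteroid dehydrogenase of the outer cortex, had 0.639 and 0.967, below the median of members in both pools. The 2 genes of the list with a CpG-poor TSS that were not members were Hsd3b1, the other cortical 3β-hydroxysteroid dehydrogenase, and Sult2a8. Cyp21a1 and the Hsd3b genes have near copies in the genome, and the effect of reads shared with them was not tested.

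The annotated start and the centre of accessibility did not always coincide at these genes. At Cyp11a1 the midpoint of the strongest peak lay 299.5 bp downstream of the GENCODE start in replicate 1 and 309.5 bp downstream in replicate 2, and the nearest start in the RefSeq promoter table lay 281 bp downstream. At Dbh the midpoints were 167.5 and 157.5 bp downstream and the RefSeq start 274 bp downstream. At Tef they were 169.5 and 179.5 bp and 252 bp. At other genes the RefSeq start lay on the opposite side from the peak: at Plin1 the start was at −605 bp and the midpoints at 570.5 and 560.5 bp, at Gapdh the start was at 694 bp and the midpoints at −143.5 and −133.5 bp, and at G6pc they were at 155 bp and at −96.5 and −130.5 bp. Among the 55 list genes that were members, 40 had an entry in that table on the same strand. The nearest RefSeq start was within 50 bp for 22 of these 40. It was farthest at Fkbp5, 31375 bp from the GENCODE start, and at Cd36, 13833 bp from it. The member TSSs of Fkbp5 and Cd36 thus lay far from any start of these genes in that table.

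Other lists of adrenal cells also had open CpG-poor promoters. For chromaffin cells, the catecholamine-making cells of the medulla, 3 of 4 genes with a CpG-poor TSS were members, against 2 with the shorter list and 4 with peaks within 1000 bp. Dbh, dopamine β-hydroxylase, had signals of 1.72 and 2.37 in replicates 1 and 2. Th, tyrosine hydroxylase, had 1.65 and 2.23. Ddc, aromatic amino acid decarboxylase, had 0.409 and 0.408, and Hand1 was not a member. For the zona glomerulosa and capsule 3 of 6 were members, namely Znrf3 (1.10 and 1.07), a membrane ubiquitin ligase that dampens Wnt signals, Hsd3b6 and the angiotensin receptor gene Agtr1b (0.520 and 0.576). Cyp11b2, the aldosterone synthase of the glomerulosa, was not a member.

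Endothelial genes were members at 7 of 11, and at 4 of 11 with the shorter peak list. Tie1, a receptor tyrosine kinase of vessels, had signals of 1.90 and 1.86 in replicates 1 and 2, and Egfl7, a secreted vessel protein, had 1.81 and 1.55. Rasip1 had 0.921 and 0.991, and Cdh5, VE-cadherin, had 1.05 and 0.775. Robo4, Emcn and Erg were the others. Tie1, Egfl7, Cdh5 and Robo4 had less signal in replicate 2 than in replicate 1, while Rasip1, Emcn and Erg had more, and 76.8% of all members had more in replicate 2.

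Macrophage genes were members at 6 of 19, and 5 of the 6 had signals under the median of members in both pools. The lysosomal glycoprotein gene Cd68 had 1.14 in replicate 1 and 1.26 in replicate 2, and the complement genes C1qb, C1qa and C1qc lay between 0.476 and 0.624 in both pools. Mrc1 and Lyz2 were the others. With the shorter peak list 0 of the 6 remained. Defining macrophage genes Csf1r, Spi1, Adgre1 and Fcer1g had no peak within 500 bp in either pool.

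Among the remaining tissue lists, smooth muscle and pericytes had 2 of 5 (Myh11 and Rgs5), adipocytes 3 of 9, Schwann and sustentacular cells 1 of 6 (Fabp7), skeletal muscle 1 of 8 (Ckm), forebrain neurons 1 of 3 (Camk2a) and hepatocytes 1 of 16. Plin1, the lipid droplet protein perilipin, had signals of 2.71 and 3.09 in replicates 1 and 2, while Adipoq and Cfd, which mark fat cells, had no peak in either pool. G6pc, glucose-6-phosphatase, was the hepatocyte member, with 0.654 and 1.23. The hepatocyte count was 0 with the shorter list and 5 of 16 with peaks within 1000 bp, and with the shorter list the smooth muscle count was 1 and the forebrain neuron count 0. Counts were 0 of 18 for lymphocytes and mast cells, 0 of 10 for fibroblasts, 0 of 7 for erythroid cells, 0 of 7 for kidney and 0 of 7 for spermatogenesis. Most of these lists hold few genes with a CpG-poor TSS, so a single member moves their share by many percentage points.

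**Figure D4:**
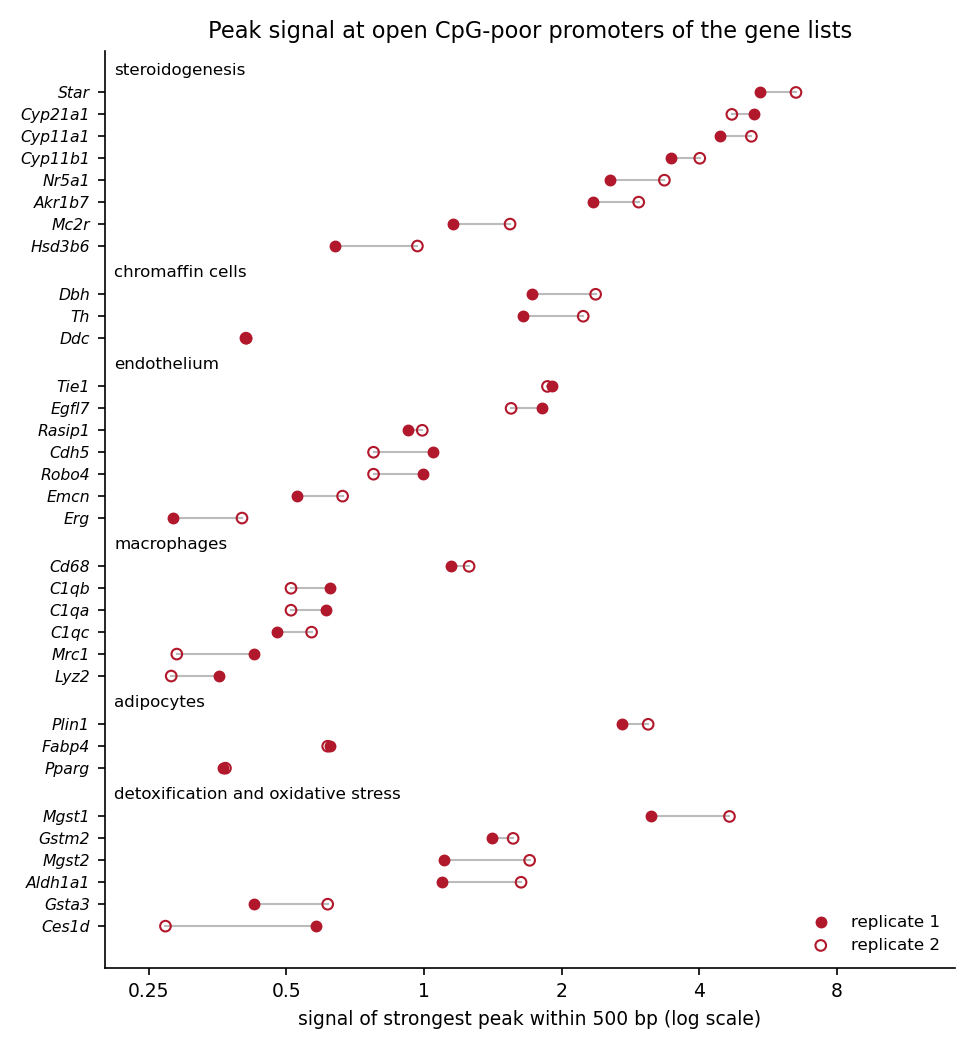
Signal of the strongest peak within 500 bp (x axis, log scale) in replicate 1 (filled) and replicate 2 (open) for the member genes of 6 lists (rows), each by its member TSS with the highest mean signal. Star, Cyp21a1, Cyp11a1 and Cyp11b1 lie above 3 in both pools, and 5 of the 6 macrophage genes lie under 1.

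Metabolic lists had several members. Detoxification and oxidative stress had 6 members of 10 genes with a CpG-poor TSS: Mgst1, a microsomal glutathione transferase, had signals of 3.14 and 4.66 in replicates 1 and 2, Gstm2 had 1.41 and 1.57 from peaks that did not overlap between the pools, Mgst2 had 1.11 and 1.70, and Aldh1a1, a retinaldehyde dehydrogenase, had 1.09 and 1.63. Gsta3 and Ces1d were the others. Lipid uptake, storage and transport had 4 of 7. Lipe, the hormone-sensitive lipase that frees cholesterol from its esters in the cortex, had 1.49 and 1.54. Acsl1, an acyl-CoA synthetase, had 1.30 and 1.51, Cd36, a fatty acid receptor, had 1.04 and 1.74, and Fabp4 had 0.624 and 0.616. The nearest RefSeq start of Cd36 lay 13833 bp from its member TSS.

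The lists of other kinds follow. The glucocorticoid response list had 1 of 4, Fkbp5, a cochaperone of the glucocorticoid receptor. In replicate 1 it had 3.10 from a peak centred at −626.5 bp. In replicate 2 it had 1.85 from another peak centred at −186.5 bp. The nearest RefSeq start of Fkbp5 lay 31375 bp from this member TSS, and the gene also had an open CpG-rich TSS. Complement and acute phase genes were members at 6 of 17, led by C1ra, a protease of the classical pathway, with 1.51 in replicate 1 and 2.30 in replicate 2. Secreted hormones and peptides had 2 of 11 (Agt and Inha), the circadian clock 1 of 3 (Tef), housekeeping genes 1 of 2 (Gapdh, with 4.50 and 4.70), immediate early genes 0 of 2 and keratins and epithelial junctions 0 of 2. In the housekeeping, immediate early and clock lists every gene was open at some TSS (12 of 12, 12 of 12 and 13 of 13). Among all protein-coding genes, 13092 of 21851 were open at some TSS. Most genes of these lists had no CpG-poor TSS.

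Gene families gave a similar spread, and the genes named from them were chosen after their values were seen. Aldo-keto reductases of the Akr1 group were members at 7 of 13 genes with a CpG-poor TSS, against the 13.7% background. Akr1e1 had signals of 5.42 and 6.69 in replicates 1 and 2, and Akr1cl had 4.70 and 5.36. Cytochromes P450 were members at 19 of 84, led by Cyp4f13 and then Cyp21a1, Cyp11a1 and Cyp11b1, and followed by Cyp4f16 (2.85 and 3.93) and Cyp4f14 (2.57 and 3.64). Cyp17a1, the 17α-hydroxylase that adult mouse adrenals are known to lack, which leaves corticosterone as their main glucocorticoid, was a member, with 0.996 and 1.34 and 3 footprints in each pool. Hydroxysteroid dehydrogenase genes were members at 3 of 12, and Hsd3b7, which acts in bile acid synthesis, had 4.44 and 5.37.

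Interferon-induced Ifi and Ifit genes were members at 10 of 21, led by Ifi27 with signals of 5.001 and 6.44 in replicates 1 and 2 and by Ifi35 with 2.79 and 3.20. Ifit1 and Ifit1bl2 had the same values, 0.639 and 0.711. Glutathione S-transferases were members at 6 of 12, C-type lectins at 9 of 29, interleukins and their receptors at 13 of 65, solute carriers at 24 of 136 and Zfp zinc finger genes at 25 of 153. Serpins reached 9 of 56. Il11ra1, a receptor chain for interleukin 11, led the interleukin group with 5.01 and 6.17. At or near 0 were the Ms4a genes (0 of 19), keratin-associated proteins (1 of 53), keratins (1 of 29) and UDP-glucuronosyltransferases (1 of 19).

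An exact TATAAA box was uncommon at the annotated starts. Variants of it were not searched, and a box set from a start other than the annotated one would be missed. The letters TATAAA on the sense strand, starting 40 to 20 bp upstream, were present at 46 members (2.42%), at 141 other open TSSs (0.641%) and at 497 CpG-poor TSSs not open (3.80%), against 1.81% of all protein-coding TSSs. The same letters reversed and not complemented, a control for base composition, were found at 0.526% of members, 0.0863% of other open TSSs and 1.16% of CpG-poor TSSs not open. Members were thus above other open TSSs and below the CpG-poor TSSs not open, for the box and for its reversed letters. In bins of 10 bp the members' share was highest from −30 to −21, at 1.63%.

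**Figure D5:**
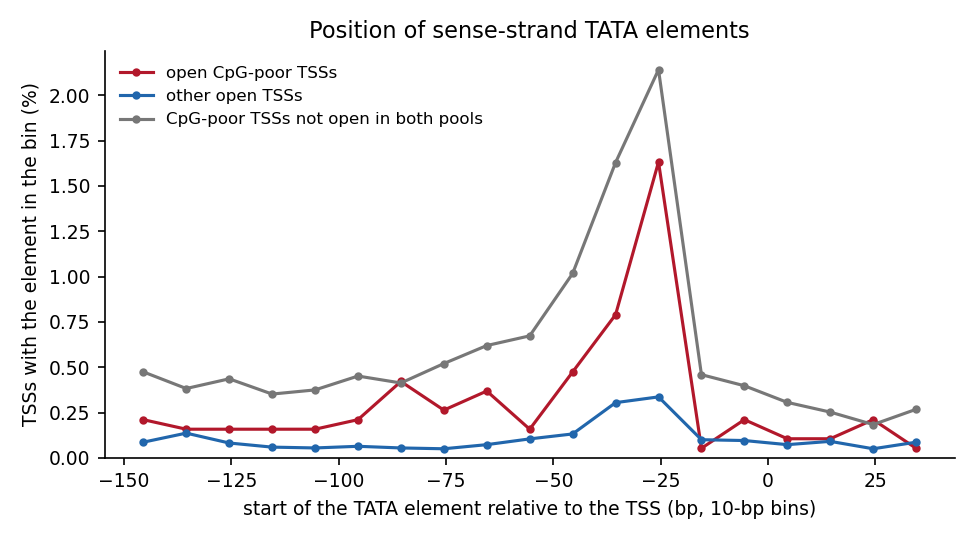
Percent of TSSs with TATAAA on the sense strand starting in each bin of 10 bp (y axis) by distance from the TSS (x axis, negative upstream), for open CpG-poor TSSs (red), other open TSSs (blue) and CpG-poor TSSs not open in both pools (grey). All 3 groups have their highest value from −30 to −21, at 1.63%, 0.336% and 2.14%.

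The 5 members with a TATA box and the most signal are shown from −50 to −1 on the gene's strand, in the same reference, with the TATAAA letters in capitals.
Ecm1 (chr3:95739568-95739617, - strand): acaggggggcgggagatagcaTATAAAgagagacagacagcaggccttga
Ankrd2 (chr19:42035988-42036037, + strand): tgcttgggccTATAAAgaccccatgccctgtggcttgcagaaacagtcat
Nr0b2 (chr4:133553326-133553375, + strand): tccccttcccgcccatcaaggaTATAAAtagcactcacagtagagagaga
Acy3 (chr19:3986520-3986569, + strand): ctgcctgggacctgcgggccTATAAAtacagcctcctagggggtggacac
Orm3 (chr4:63356112-63356161, + strand): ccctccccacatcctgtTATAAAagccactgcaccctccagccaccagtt

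Ecm1 encodes an extracellular matrix protein, and its signal was 3.17 in replicate 1 and 4.48 in replicate 2. Nr0b2, the orphan receptor SHP that represses other nuclear receptors, had 2.80 and 3.75, and Ankrd2, a muscle ankyrin repeat protein, had 2.87 and 3.85. Acy3, an aminoacylase, had 2.85 and 2.89, and Orm3, an orosomucoid, had 1.87 and 2.21. The boxes start at −29, −40, −28, −30 and −33 in the order printed. Of these the box of Acy3 overlapped a footprint of both pools by at least 1 base, and the box of Ecm1 a footprint of replicate 1 alone. The strongest peak was centred at −427.5 and −447.5 bp at Ankrd2 and at −275.5 and −325.5 bp at Nr0b2, away from the box.

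Short motifs were counted over the 250 bp upstream on both strands. The letters searched are given, the reversed and not complemented letters are the control, and matches are descriptions of sequence. AP-1 letters (TGANTCA, bound by Fos and Jun) were found at 12.2% of members, 3.29% of other open TSSs and 8.97% of CpG-poor TSSs not open, against 5.67% of all TSSs. Their reversed control was at 5.79% of members, 3.06% of other open TSSs and 7.01% of those not open. The NR5A1 site (CAAGGTCA) was found at 2.32% of members (44 TSSs), 0.772% of other open TSSs and 1.69% of those not open. It was at 1.15% of all TSSs. Its reversed letters were at 1.16%, 0.532% and 0.833% in the same order, so the site exceeded its control in every group. This site differs only in its first letter from the NR4A site (AAAGGTCA), which was found at 1.79% of members and, reversed, at 1.89%.

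ETS letters (AGGAAG) were present at 39.4% of members, 25.96% of other open TSSs and 32.5% of CpG-poor TSSs not open. They were at 28.7% of all TSSs. The reversed letters were at 25.9%, 18.7% and 21.8% in the same order, so the site exceeded its control in every group. The E-box CAGCTG was at 18.5%, 10.9% and 13.5% in that order, against 12.3% of all TSSs. Its reversed letters contain a CpG and so are no fair control in windows chosen for few CpGs. TEAD letters (GGAATG) were at 14.8%, 8.78% and 14.1%, against 11.1% of all TSSs. Reversed, they were at 6.47%, 5.85% and 8.11% in the same order.

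The GC box and the CRE, which contain CpG, were rarer at members than at other open TSSs, as the rule makes likely. The GC box (GGGCGG, SP and KLF factors) was found at 19.8% of members, 65.0% of other open TSSs and 7.03% of CpG-poor TSSs not open, with 18.9% of members for the reversed letters and 42.1% of all TSSs for the site. The CRE (TGACGTCA, CREB) was at 0.947%, 3.10% and 0.604%, against 1.99% of all TSSs. CCAAT letters (NF-Y) contain no CpG and were at 32.3% of members, 34.6% of other open TSSs and 34.3% of those not open, against 33.9% of all TSSs, with 24.3% of members reversed. GATA letters (AGATAA) were at 10.6%, 4.50% and 15.7%, against 8.73% of all TSSs, and their reversed letters were at 9.00%, 5.07% and 14.9%, in the same order and close in size.

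Matches inside footprints differed by motif. Over the 250 bp upstream, 3.25% of bases at members and 13.3% at other open TSSs were in a footprint of both pools, which is the background for these shares. A match counts as inside a footprint when at least 1 base overlaps. At members 8 of 18 CRE matches (44.4%) overlapped a footprint of both pools, against 85.7% of matches at other open TSSs. For the GC box the shares were 29.2% and 44.9%, for the NR5A1 site 22.2% (10 of 45) and 17.6%, for AP-1 12.05% (30 of 249) and 20.6%, and for TATAAA letters 3.03% and 14.4%. A match of several bases has more chances to touch a footprint than 1 base, and the CRE count at members is small.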

How the data were processed

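DNase-seq of 2 pools of mouse adrenal gland was used, each with 1 library, on mm10 per the labels. The members, gene lists, families and motifs were chosen with earlier results of these data known. Per pool, the authors deposited 2 peak lists with a signal per peak (117371 and 146307 peaks in the longer list, used here), footprints whose deposited score was 0.01 in every row (272595 and 319381, used as positions), and a table of intervals with a deposited FDR, which is a corrected p-value. The aligner, the callers, their thresholds and the signal's normalization were not given in the sources used here. All signals were whole multiples, within 0.05 of a step, of 0.00743 in replicate 1 and 0.00799 in replicate 2, so the member median was 135.5 and 154 steps and the lowest member 24 and 20; sequencing depth itself is unknown.

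Start sites were the 5' ends of protein-coding transcripts in the basic set of GENCODE M21 on 21 chromosomes, 1 per gene, strand and position. The CpG ratio came from the GRCm38.p6 RefSeq FASTA, which is mm10, over 500 bp on either side. A peak or footprint counted with an overlap of at least 1 bp. Named genes follow a fixed rule: the 12 with the highest mean signal and no CpG-rich TSS within 500 bp, up to 4 per list of interest, the 5 with most footprints, those at the limits, and the 5 strongest with a TATA box; other names were chosen after their values were seen. In all 25 gene lists with 387 genes (387 matched), 30 families and 20 motifs were counted. With 1 group no test was made, and means ± SD are over the 2 pools, whose difference may be technical. The scripts, written in Python 3.11.15 with numpy 2.4.6 and pandas 2.3.3 (figures with matplotlib 3.10.9), were tested on simulated windows and peaks. Alternatives changed the peak list, window, overlap, CpG limit, transcripts and pools.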

Additional observations from a re-analysis of the deposited data

How the results depend on the processing

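No paired analysis was possible because the series has 1 group. Counts of members ranged with the peaks used. From 1 pool alone (leaving out the other) there were 2126 to 2366 member TSSs, 1461 to 1641 genes and 2009 to 2250 TSSs with no CpG-rich TSS nearby, 60 to 68 list genes (55 in the main count), an open share of 14.2 to 15.8%, a median signal of 0.899 to 0.943, and a footprint share of 81.0 to 85.4%. With the 50% of peaks of most signal, there were 1206 TSSs, 821 genes and 1123 without a CpG-rich TSS nearby, with an open share of 8.05%, a median signal of 1.64 and footprints in both pools at 92.2%. The shorter list gave an open share of 8.63%, a median signal of 1.52, footprints at 89.7% and 36 list genes. A peak within 250 bp gave an open share of 10.9% and footprints at 84.2%, and within 1000 bp 16.3% and 62.9%. The CpG ratio over 1000 bp gave 15.4% and 83.7%, and a limit of 0.40 gave 14.9% and 81.8%; a limit of 0.30 gave an open share of 10.5%. Footprints were at 83.2% with equal numbers of peaks per pool, at 83.3% by peak midpoint and at 67.2% when counted within 250 bp. TATAAA anywhere in the 250 bp upstream on both strands was at 10.5% of members, against 10.8% of all TSSs, and the reversed letters at 11.1% of members, so members did not stand above all TSSs by this count. Without chemosensory receptor genes, an alternative chosen after seeing the data, the open share was 15.6%. The cause of these changes was not tested beyond what each setting counts. Depth is unknown, and 24 or 20 signal steps at the weakest members limit their precision.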
